A study of Mus musculus with 30 samples.

Results

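The comparison described here sets the liver of adult mice with 1 functional copy of Ctcf (Ctcf+/-, Het) against wild-type liver (WT), across every gene in the deposited table. It takes 6 of the 30 libraries of the study, which also holds brain, kidney, muscle and spleen, and all 48709 genes, of which 15584 had enough counts in liver to be tested. The libraries are 3 WT (WT 1 to WT 3) and 3 Het (Het 1 to Het 3) from whole liver pieces of the C57BL/6 strain, with no treatment named and one animal per library as far as the labels say. Nothing but the Ctcf genotype is stated to separate the groups, and the age in weeks, sex, feeding state and hour of collection are not given in the sources used here.

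CTCF is a DNA-binding protein with many zinc fingers that halts cohesin at the bases of chromatin loops and separates regulatory domains. Liver transcripts follow the circadian clock, in which the activators ARNTL and CLOCK drive the Per, Cry and Nr1d repressors, and they follow the switch between the fed state (lipid synthesis under SREBP-1c and insulin) and the fasted state (fatty acid oxidation under PPARA, gluconeogenesis). They also depend on the position of a hepatocyte between the portal and the central vein, on inflammatory cytokines that raise acute-phase proteins, and on interferons, which raise antiviral genes. The accounts below take each of these programs as a list of genes, give its members by library, and set the list beside all genes tested.

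Levels are given as CPM, counts scaled to one common library size with TMM factors. Total counts were 56281909 to 81078321 per library, the 10 leading genes held 21.99 to 24.47% of them, and the share of mitochondrial genes was 3.85 to 5.21%. The label of liver was met by the hepatocyte markers, of which Alb, the gene of serum albumin, measured 118399 to 155943 CPM in WT and 111081 to 133748 in Het. The 6 kidney markers were at or under 3 counts in every library. The Y-linked gene Ddx3y had 0 counts in all 6 libraries and Xist measured 242 to 766 CPM. All 6 libraries thus showed the pattern of female tissue.

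Spread between animals exceeded the difference between genotype means in 29 of 34 gene programs. Component 1 of the 500 most variable genes held 45.6% of the variance, and genotype accounted for 0.0344% of it. On that component WT 3 (30.8) and Het 3 (15.5) stood apart from WT 1 (-12.8), WT 2 (-17.1), Het 1 (-8.21) and Het 2 (-8.21). Component 2 held 21.5% of the variance, with WT at -13.0, -12.1 and -9.93 and Het at 15, 10.7 and 9.32. The groups did not overlap on component 2, and genotype accounted for 97.4% of it. The components were taken over genes chosen for their variance in these same libraries, and over all genes that passed the filter genotype accounted for 42.6% of component 2.

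**Figure D1:**
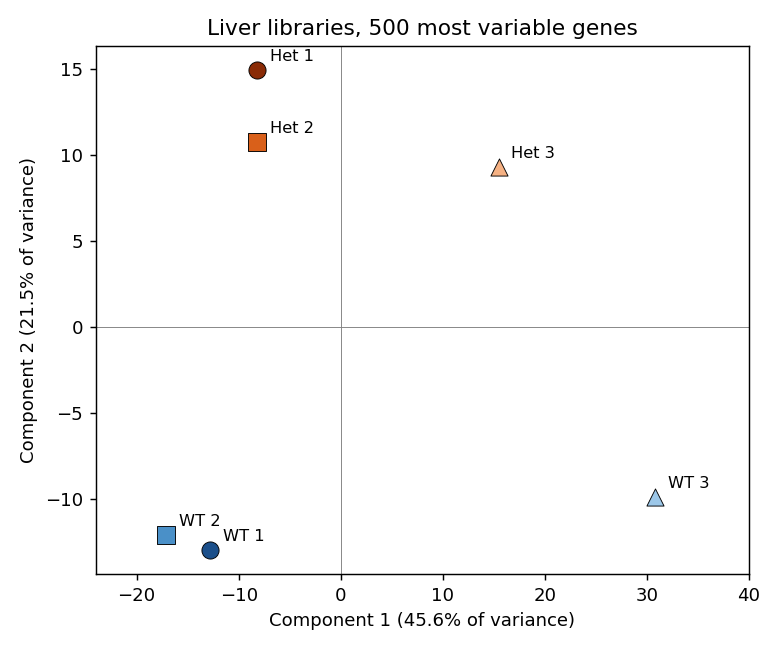
Each point is 1 liver library placed by components 1 and 2 of the 500 most variable genes (log2 CPM, axes in component units). WT 3 and Het 3 lie at positive values of component 1 (30.8 and 15.5), and the WT and Het libraries lie on opposite sides of 0 on component 2.

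The libraries of a group were not equally close to one another. Het 1 and Het 2 differed by more than 2-fold at 0.304% of genes at 1 CPM or more, whereas WT 2 and WT 3 differed by more than 2-fold at 7.00%. The other within-group pairs fell between, at 3.15% for WT 1 and WT 2, 3.76% for WT 1 and WT 3, 4.26% for Het 1 and Het 3 and 3.53% for Het 2 and Het 3. No pair agreed within counting noise, so none was merged. The within-group SD of log2 CPM had a median of 0.199 in WT and 0.164 in Het, and it was larger in Het at 40.8% of the 12166 genes.

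WT 3 carried transcripts of brain. A list of 15 neuron and myelin genes, written after this was noticed, summed to 109 CPM in WT 3 and to 19.4 to 23.8 CPM in the other 5 libraries. All 15 were highest in WT 3, at 0.736 to 2.84% (median 0.891%) of their level in WT brain. The 2.84% was that of Syt1, which measured 20.6 CPM in WT 3 and also 10.9 to 15.6 CPM in the other 5 libraries. Syt1 thus made up a large part of the sums in those libraries. Slc17a7, a vesicular glutamate transporter of neurons, measured 4.70 CPM in WT 3 and at most 0.302 elsewhere, and Camk2a, a neuronal kinase, 11.6 CPM against at most 0.348. The part of this signal in the results below was not tested. Numbers of called genes, list medians, and the interferon and endothelial counts at an unadjusted p under 0.05 were also taken without the libraries numbered 3. That setting leaves out Het 3 as well as WT 3. Counts of members above 0, of highest or lowest libraries and of groups that do not overlap were not retaken.

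Across the genome few single genes passed the test. With edgeR's quasi-likelihood test and Benjamini-Hochberg adjustment, 3 of 15584 genes (0.0193%) had an adjusted p under 0.05, 2 higher and 1 lower in Het. At an unadjusted p under 0.05, 386 genes (2.48%) were higher and 324 (2.08%) lower, and the 3 Het libraries lay wholly above WT at 730 genes (4.68%) and wholly below at 668 (4.29%). These shares over all genes tested are the background for every count of list members in liver below. The median log2 fold change over all genes tested was -0.01, and the common biological coefficient of variation was 0.228. Leaving out Het 3 gave 17 calls, and leaving out Het 1 or Het 2 gave 1.

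Ctcf itself (chromosome 8, 105636568 to 105682922, GRCm38) measured 27.4, 25.8 and 26.7 CPM in WT and 19.6, 17.7 and 13.4 in Het. All 3 Het libraries were below all WT libraries, with Het 3 the lowest. The means were 26.6 ± 0.774 (SD, n = 3) and 16.9 ± 3.17 (SD, n = 3), a log2 fold change of -0.66 (SE 0.15), which did not pass the test over all genes (edgeR adjusted p = 0.543). A list of 14 genes of chromatin architecture holds Ctcf itself, the cohesin subunits and related factors. In it 7 lay above 0 and 7 below, Ctcf among the latter, with a median log2 fold change of 0.00, and Ctcf was the only member at an unadjusted p under 0.05. The cohesin subunit Smc1a measured 48.9 to 57.7 CPM in WT and 47.6 to 55.6 in Het, and Rad21 measured 42.0 to 44.8 and 37.1 to 46.4.

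None of the 3 genes that passed the test was on a program list. Carmil2 encodes a regulator of actin capping known from T cells and lies downstream of Ctcf on chromosome 8 (105686274 to 105698187). It measured 0.339, 0.678 and 0.900 CPM in WT and 24.8, 26.1 and 24.4 in Het. The groups were far apart and Het varied little, and the difference was 5.30 on the log2 scale (SE 0.30, edgeR adjusted p = 0.00113). Carmil2 overlaps Acd, and counting took no account of strand. Hsd3b1, a steroid dehydrogenase, measured 1.59, 1.22 and 0.900 CPM in WT and 11.3, 11.3 and 8.38 in Het a log2 fold change of 3.06 (SE 0.25) at an adjusted p of 0.00962 from edgeR. Near-identical copies of Hsd3b1 exist, which makes its counts uncertain. Fam19a5, a secreted chemokine-like protein, measured 1.55, 0.834 and 1.36 CPM in WT and had 3, 1 and 3 counts in Het, which is at least 30.0-fold lower when each Het library is set at 3 counts (edgeR adjusted p = 0.0264). Hsd3b1 lost its call without WT 2, Het 1 or Het 2 (adjusted p of 0.0614 to 0.101), and Fam19a5 without WT 1, WT 3, Het 1 or Het 2 (0.0987 to 0.355). Hsd3b1 also lost it in a fit of all 30 libraries (0.277), and Fam19a5 with scaling by total counts (0.0512).

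The interferon response list stood on one side of 0. All 28 tested members had a log2 fold change above 0, with a median of 0.45, where 7415 of 15584 genes tested lay above 0. At an unadjusted p under 0.05, 15 members were higher (against 2.48% of all genes tested) and 0 lower, and the groups did not overlap at 11, all higher in Het (against 4.68% of all genes tested). No member passed the adjusted threshold (lowest edgeR adjusted p = 0.491). The count of 15 became 7 without Het 1, 8 without Het 2, 18 without Het 3 and 17 without the libraries numbered 3.

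Interferons raise a set of antiviral genes through a DNA element of their promoters, the interferon-stimulated response element (ISRE). The promoters of 4 of the members with the smallest p are printed to show this element, which was searched without use of the counts. Each is the 250 bases before a RefSeq transcription start on GRCm38.p6, 5' to 3' on the strand of the gene. Matches to GAAANNGAAA on either strand are in capitals. Only windows with a match were printed, and for Gbp3, which has 2 starts in the RefSeq table, the first such window was taken. Ifit3 lies at chr19:34583279-34583528 (plus strand), Ifit1 at chr19:34640639-34640888 (plus), Isg15 at chr4:156200819-156201068 (minus) and Gbp3 at chr3:142559794-142560043 (plus).
Ifit3: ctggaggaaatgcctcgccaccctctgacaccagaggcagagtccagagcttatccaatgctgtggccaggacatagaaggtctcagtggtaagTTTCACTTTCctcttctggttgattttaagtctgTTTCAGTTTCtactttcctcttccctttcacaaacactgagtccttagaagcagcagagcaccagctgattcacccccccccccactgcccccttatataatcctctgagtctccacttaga
Ifit1: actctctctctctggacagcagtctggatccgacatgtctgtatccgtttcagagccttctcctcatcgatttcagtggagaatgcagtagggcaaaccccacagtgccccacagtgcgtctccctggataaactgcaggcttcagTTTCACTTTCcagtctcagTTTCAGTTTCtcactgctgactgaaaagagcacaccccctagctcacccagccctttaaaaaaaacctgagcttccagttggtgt
Isg15: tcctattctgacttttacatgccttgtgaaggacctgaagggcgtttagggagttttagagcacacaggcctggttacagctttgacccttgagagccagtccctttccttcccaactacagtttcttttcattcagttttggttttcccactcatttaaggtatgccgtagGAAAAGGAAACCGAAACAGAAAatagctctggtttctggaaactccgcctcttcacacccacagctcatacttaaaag
Gbp3: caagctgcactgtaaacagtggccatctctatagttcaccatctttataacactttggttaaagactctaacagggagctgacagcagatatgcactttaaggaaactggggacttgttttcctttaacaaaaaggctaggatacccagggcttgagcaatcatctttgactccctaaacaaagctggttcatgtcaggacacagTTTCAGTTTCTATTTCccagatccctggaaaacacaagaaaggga
The element occurred in 13 of the 25 list members with a promoter in the RefSeq table (52.0%) and in 3.46% of all 27025 genes of that table. Among tested genes it was found in 3.41%, among those higher in Het at an unadjusted p under 0.05 in 29 of 259 (11.2%), and among those lower in 9 of 224 (4.02%). Matches may overlap, as the 3 in Isg15 and the 2 in Gbp3 do. A match describes the letters only.

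Ifit3, an antiviral RNA-binding protein, measured 26, 26.1 and 25.2 CPM in WT and 48.6, 54.9 and 33.5 in Het. Het 1 and Het 2 were about level, Het 3 was nearer to WT, and the groups did not overlap (log2 fold change 0.83, SE 0.18, edgeR adjusted p = 0.491). Its paralogue Ifit1 measured 21.7, 16.6 and 17.4 CPM in WT and 52.4, 56.6 and 22.8 in Het (log2 fold change 1.24, SE 0.31, edgeR adjusted p = 0.619). Usp18, which removes the ubiquitin-like ISG15 from proteins and damps interferon signalling, measured 17.7, 18.8 and 18.3 CPM in WT against 39.5, 41.8 and 23.0 in Het. Isg15 itself measured 27.0, 18.4 and 20 against 41.4, 47.5 and 29.7 CPM. The guanylate-binding GTPase Gbp3 measured 20.3, 22.8 and 17.8 CPM in WT and 47.6, 49.2 and 25.9 in Het. In each of Ifit1, Usp18, Isg15 and Gbp3 the lowest Het library was Het 3 and it still lay above all WT libraries. As each library was left out the adjusted p from edgeR ran up to 1 for Ifit1, Ifit3, Usp18 and Gbp3, and it was under 0.05 without Het 3 alone, at 0.0274, 0.0438, 0.0274 and 0.0422.

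**Figure D2:**
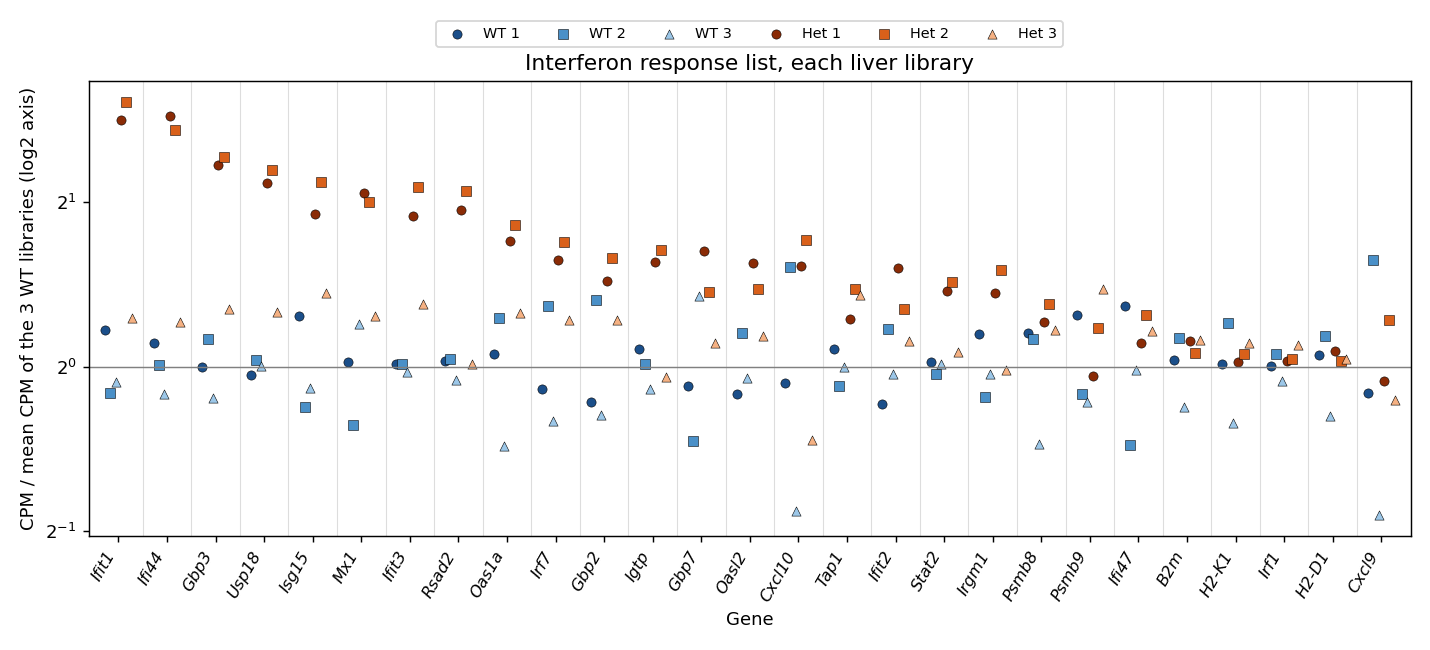
Points are 27 of the 28 interferon response genes in each of the 6 liver libraries, as CPM over the mean CPM of the 3 WT libraries on a log2 axis, ordered by size of the difference. Het 1 and Het 2 lie above WT for most antiviral genes on the left, Het 3 lies between them and WT, and the antigen-presentation genes B2m, H2-K1 and H2-D1 on the right lie near the WT mean.

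The list was not uniform among its members or among Het libraries. Het 1 and Het 2 each lay above all WT libraries at 21 of 28 members and Het 3 at 13, where the same shares of all genes were 21.9%, 19.9% and 22.9%. The chemokine Cxcl9 and the antigen-presentation genes B2m, H2-K1 and H2-D1 overlapped between groups. Outside the list, Ifi27l2b, an interferon-inducible membrane protein, measured 10.7, 8.54 and 12.8 CPM in WT and 27.2, 23.7 and 25.4 in Het, with Het 3 level with the others (log2 fold change 1.25, edgeR adjusted p = 0.0882). Ifi27l2b was named for a small p among genes whose groups do not overlap.

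In the other 4 tissues the same list also lay mostly above 0, with 0 members passing the adjusted threshold in each. The members above 0 were 27 of 27 in brain, 25 of 28 in kidney, 26 of 28 in muscle and 25 of 28 in spleen, with median log2 fold changes of 0.31, 0.24, 0.32 and 0.13. Members higher at an unadjusted p under 0.05 were 2 in brain (against 1.39% of all genes tested there), 10 in kidney (against 4%), 7 in muscle (against 3.67%) and 0 in spleen (against 2.55%). The labels do not say whether the tissues came from the same animals. Where the liver effect was set against the mean effect of the other 4 tissues in 1 fit, 27 of 24262 genes (0.111%) passed the adjusted threshold and none of them was on the interferon list.

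Markers of the other cells of liver were read in the same way. Of 11 endothelial markers 10 lay below 0, with a median log2 fold change of -0.34, 6 were lower at an unadjusted p under 0.05 (against 2.08% of all genes tested), and the groups did not overlap at 7, all lower in Het (against 4.29% of all genes tested). Their summed level was 413 to 471 CPM in WT and 297 to 399 in Het, and no marker passed the adjusted threshold. Cdh5, the cadherin of endothelial junctions, measured 23.9, 31.9 and 30.6 CPM in WT and 20.1, 16.5 and 21.9 in Het (log2 fold change -0.56), and the sinusoidal gene Oit3 measured 32.4, 31.8 and 36.9 against 24.2, 19.6 and 26.2 (-0.53). In both genes Het 2 was the lowest and the groups did not overlap. The count of 6 became 2 when libraries were scaled by total counts alone, and 2 to 7 as each library was left out, 2 being the value without Het 2. In whole tissue, fewer cells of a type and less RNA per cell cannot be told apart.

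The 11 Kupffer cell markers, of resident liver macrophages, all lay below 0 (median log2 fold change -0.23), with 0 at an unadjusted p under 0.05. Their summed level was 1063 CPM in WT 2, 738 and 613 in the other WT libraries, and 661 to 714 in Het, so the WT range held the Het range. Without WT 2 the median of the Kupffer list was 0.03. The 7 T cell markers also lay below 0 (median -0.37, 0 at an unadjusted p under 0.05), at summed levels of 4.39 to 8.97 CPM in WT and 4.81 to 5.07 in Het. All 4 markers of mesothelium, the covering layer of the organ, lay above 0 (median 0.76). Of these, 2 were higher at an unadjusted p under 0.05 (against 2.48% of all genes tested). The groups did not overlap at 2, both higher in Het (against 4.68%). Their summed level was low and overlapped, at 7.75 to 11.4 CPM in WT and 10.6 to 18.3 in Het. Lrrn4 measured 0.812, 0.939 and 0.818 CPM in WT and 1.89, 1.68 and 2.28 in Het, with no overlap (log2 fold change 1.18, edgeR adjusted p = 0.455). Erythroid markers summed to 712 to 1017 CPM in WT and 563 to 1625 in Het, and B and plasma cell markers to 27.9 to 34.8 and 30.1 to 53.9. The part of these cell markers in the other results was not tested.

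The clock lists separated single animals, chiefly WT 2, and not the genotypes. WT 2 was the lowest library for 4 of 5 activators and the highest for 6 of 10 repressors and 12 of 15 outputs. Over all genes tested it was the lowest for 22.4% and the highest for 21.2%. Repressors had 1 member above 0 and a median log2 fold change of -0.20, with 2 members lower at an unadjusted p under 0.05 (against 2.08% of all genes tested). Outputs had 1 of 15 above 0 and a median of -0.26, and activators 4 of 5 above 0 and a median of 0.06, with 0 members at an unadjusted p under 0.05 in either list. Leaving out each library in turn moved the repressor median between -0.56 and 0.11 and the output median between -0.47 and 0.23.

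Arntl, the activator also called Bmal1, measured 18.8, 6.87 and 16.0 CPM in WT and 17.3, 18.7 and 14.4 in Het. Npas2, which can stand in for CLOCK, measured 5.42, 0.887 and 5.29 CPM in WT and 3.66, 4.19 and 3.79 in Het. Both genes had their minimum in WT 2, and the other 5 libraries were close together. The repressor Per1 measured 5.73, 30.9 and 5.75 CPM in WT against 9.25, 9.04 and 6.56 in Het. Nr1d1 (REV-ERB alpha), which represses Arntl and overlaps Thra, measured 28.8, 153 and 53.5 against 60.2, 58.3 and 107. WT 2 was the peak of both, with Het 3 next for Nr1d1. Dbp, a clock-driven activator of hepatic enzymes, measured 2.46, 52.3 and 6.45 CPM in WT and 4.15, 3.45 and 18.7 in Het. Cry1, a repressor whose transcript peaks late in the cycle, measured 6.66 to 10.1 CPM in WT and 6.62 to 11.3 in Het. No such division between WT 2 and the rest was seen for Cry1.

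Clock activators act on the E-box, CACGTG, a palindrome that reads the same on both strands. Promoters of Per1 (chr11:69098699-69098948, plus strand) and Ciart (chr3:95882229-95882478, minus strand) are printed as members with large swings between libraries, with each E-box in capitals. A window was printed only if it held an E-box. Per1 has 2 starts in the RefSeq table, and its first window with an E-box is shown. That window lies inside the gene, which spans 69095217 to 69109960.
Per1: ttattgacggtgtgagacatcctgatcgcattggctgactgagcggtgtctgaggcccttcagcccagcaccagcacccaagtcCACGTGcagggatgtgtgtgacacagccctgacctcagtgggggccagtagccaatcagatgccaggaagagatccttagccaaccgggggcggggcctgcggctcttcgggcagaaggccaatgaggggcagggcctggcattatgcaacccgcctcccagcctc
Ciart: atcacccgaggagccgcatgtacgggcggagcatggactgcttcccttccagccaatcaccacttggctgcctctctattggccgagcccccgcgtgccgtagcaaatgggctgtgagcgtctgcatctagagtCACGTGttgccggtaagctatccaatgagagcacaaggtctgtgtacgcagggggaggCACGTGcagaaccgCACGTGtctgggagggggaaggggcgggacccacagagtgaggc
The E-box occurred in 4 of 8 repressors with a promoter in the table (50%), in 2 of 13 outputs and in 0 of 4 activators, against 6.86% of all genes in the table and 9.46% of those tested. Among genes at an unadjusted p under 0.05 it was found in 9 of 259 higher in Het (3.47%) and 23 of 224 lower (10.3%). Ciart, a repressor of CLOCK and ARNTL, measured 0.384, 3.58 and 0.540 CPM in WT and 0.162, 0.310 and 0.587 in Het. The fitted log2 fold change of -2.11 for Ciart rested on WT 2, and was -0.41 without it.

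One repressor separated the genotypes. Bhlhe40 (DEC1), which competes for E-boxes and also answers to hypoxia and growth signals, measured 107, 187 and 166 CPM in WT and 71.4, 70.0 and 79.1 in Het. All Het libraries were below all WT libraries and close to one another, and WT 2 and WT 3 were close as well. This is -1.06 on the log2 scale (SE 0.20, edgeR adjusted p = 0.388). Bhlhe40 was among the genes whose liver effect differed from the mean of the other tissues (difference in log2 fold change -1.33, edgeR adjusted p = 0.0379), where its own values were 0.32 in brain, 0.12 in kidney, 0.44 in muscle and 0.19 in spleen. That call was lost without any 1 of 5 liver libraries, with adjusted p of 0.0137 to 0.157 over the 6.

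Genes of the fed and fasted states divided the animals along another line, which also crossed the genotypes. Of 23 genes of fatty acid synthesis 8 lay above 0 (median log2 fold change -0.09) and 1 was lower at an unadjusted p under 0.05. Of 32 genes of fatty acid oxidation and ketogenesis 5 lay above 0 (median -0.13) with 0 at an unadjusted p under 0.05. As each library was left out the synthesis median ran from -0.62 to 0.08, above 0 without WT 3, Het 1 or Het 2, and the oxidation median from -0.36 to 0.16, above 0 without WT 2 or Het 3. WT 2 was the highest library for 30 of the 32 oxidation genes, and WT 3 and Het 3 were the lowest for 17 and 12. Over all genes tested WT 2 was the highest for 21.2%, and WT 3 and Het 3 were the lowest for 18.4% and 21.3%.

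Fasn, the fatty acid synthase, measured 551, 881 and 1738 CPM in WT and 383, 492 and 1724 in Het. Scd1, the stearoyl-CoA desaturase, measured 3717, 8753 and 12514 in WT and 3022, 3372 and 9434 in Het. WT 3 and Het 3 were the highest library of their group for both genes, and Het 1 and Het 2 were the lowest of all. Pnpla3, a lipid droplet enzyme induced by feeding, measured 5.56, 16.3 and 34.3 CPM in WT and 4.30, 4.27 and 79.1 in Het. The oxidation side ran the other way. Cpt1a, which admits fatty acids to mitochondria, measured 329, 447 and 252 CPM in WT and 354, 413 and 216 in Het. Fgf21, a hormone of fasted liver, measured 4.04, 14.4 and 1.16 against 10, 9.46 and 1.14, and Cyp4a14, a PPARA target, 1189, 2015 and 801 against 1697, 1350 and 586. WT 3 and Het 3 were the lowest 2 libraries for Cpt1a, Fgf21 and Cyp4a14, and WT 2 was the highest.

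Glucose genes varied as widely within WT as between groups. Of 20 genes of gluconeogenesis and glycogen 11 lay above 0 (median log2 fold change 0.01) with 0 at an unadjusted p under 0.05. Pck1, the committed enzyme of gluconeogenesis, measured 843, 2540 and 535 CPM in WT and 1368, 1413 and 1270 in Het. G6pc, the glucose-6-phosphatase that releases glucose, measured 106, 483 and 317 against 522, 512 and 374. Igfbp1, a binding protein repressed by insulin, measured 4.93, 99.6 and 21.7 in WT and 148, 130 and 60.5 in Het. WT 1 was the lowest library for G6pc and Igfbp1, and the 3 Het libraries were closer together than the WT libraries for Pck1. Glycolysis (14 genes, 3 above 0, median -0.06) and amino acid catabolism with the urea cycle (25 genes, 11 above 0, median 0.00) differed little. The fatty acid synthesis member at an unadjusted p under 0.05 was Mid1ip1, an activator of acetyl-CoA carboxylase, at 98.8, 57.4 and 117 CPM in WT and 47.8, 49.3 and 57.0 in Het (log2 fold change -0.83, edgeR adjusted p = 0.742).

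**Figure D3:**
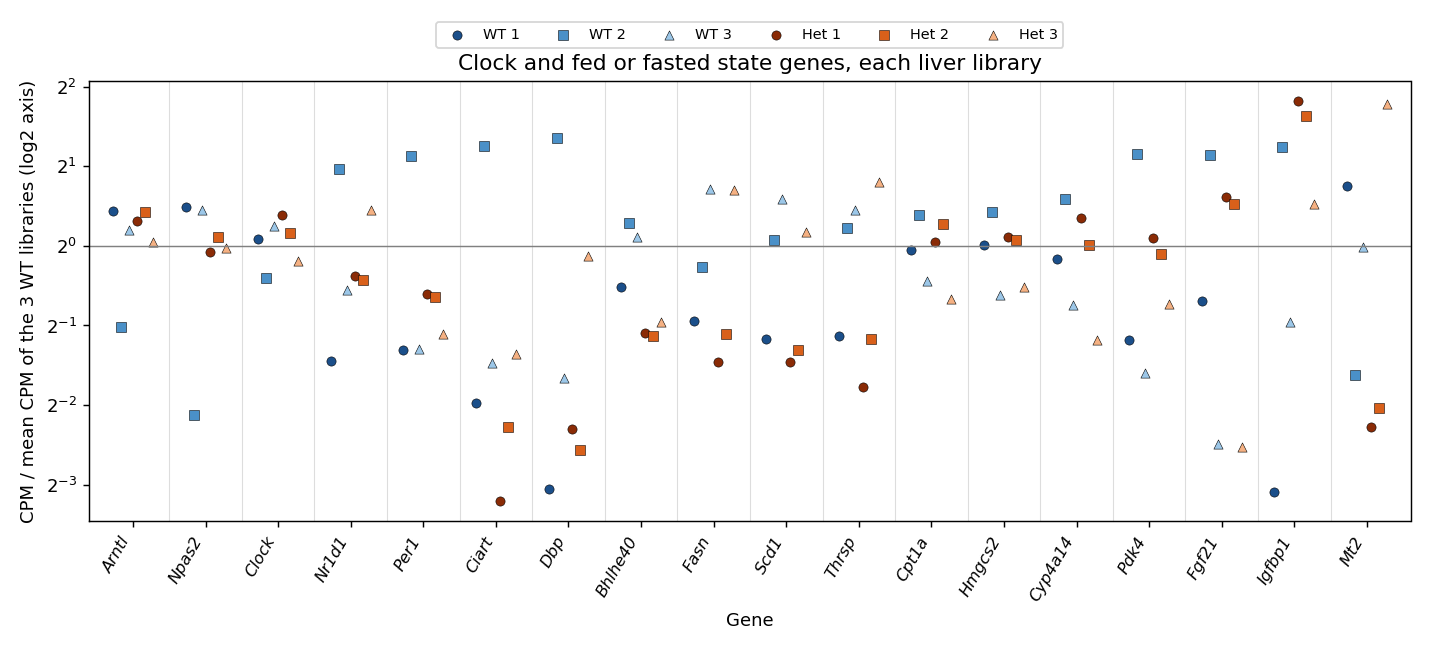
Points are 18 clock, feeding-state and metallothionein genes in each of the 6 liver libraries, as CPM over the mean CPM of the 3 WT libraries on a log2 axis. WT 2 is the lowest library for Arntl and Npas2 and the highest for Per1 and Dbp, WT 3 and Het 3 sit together at the top for Fasn and at the bottom for Fgf21, and for Bhlhe40 the 3 Het libraries lie below the 3 WT libraries.

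Cholesterol synthesis did not separate the groups. Of 25 genes 11 lay above 0, the median log2 fold change was 0.00 and 0 were at an unadjusted p under 0.05. Hmgcs1, an early enzyme of the pathway, measured 829, 363 and 542 CPM in WT and 513, 558 and 678 in Het, and Sqle, the squalene epoxidase, measured 195, 93.3 and 116 against 128, 147 and 159. WT 2 was the lowest library for both.

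In bile acid synthesis and transport 12 of 25 genes lay above 0 (median log2 fold change -0.03), and 3 were lower at an unadjusted p under 0.05 (against 2.08% of all genes tested). Slco1a1, a sinusoidal organic anion transporter of higher level in males, measured 67.4, 46.4 and 32.1 CPM in WT and 6.83, 7.61 and 29.0 in Het. The groups did not overlap, although Het 3 lay next to WT 3 (log2 fold change -1.75, edgeR adjusted p = 0.829). As each library was left out the value for Slco1a1 ran from -2.75 to -1.41, and the edgeR adjusted p from 0.0469, without Het 3, to 1. Nr0b2 (SHP), the nuclear receptor that represses bile acid synthesis, measured 35.6, 51.5 and 25.9 CPM in WT and 23.1, 20.3 and 18.9 in Het (log2 fold change -0.86, edgeR adjusted p = 0.687). Cyp7a1, the rate-limiting enzyme, measured 114, 45.1 and 182 in WT and 244, 293 and 64.8 in Het. Het 3 was within the WT range for Cyp7a1 and the other Het libraries were above it.

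Of 22 lipoprotein genes 3 lay above 0, with a median log2 fold change of -0.14 and 1 at an unadjusted p under 0.05. Angptl8, an insulin-induced inhibitor of lipoprotein lipase, measured 298, 57.2 and 195 CPM in WT and 46.6, 43.6 and 38.5 in Het. The Het libraries were all below WT and alike, and WT 2 was near them (log2 fold change -2.09, edgeR adjusted p = 0.543). As each library was left out the value for Angptl8 ran from -2.52 to -1.55, and the edgeR adjusted p from 0.0328, without WT 2, to 1. Scarb1, the receptor for high-density lipoprotein, measured 198, 182 and 181 against 169, 167 and 160 CPM, a small difference with no overlap (log2 fold change -0.18).

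Zonation markers were close to level. Of 22 periportal genes 15 lay above 0 (median log2 fold change 0.06), with 1 higher at an unadjusted p under 0.05, and of 28 pericentral genes 10 lay above 0 (median -0.12), with 1 lower. The mean log2 CPM of the pericentral list, less that of the periportal list and centred over the 6 libraries, was 0.22, 0.13 and -0.08 in WT and 0.09, -0.10 and -0.27 in Het. The groups overlapped on this measure, with Het 3 the lowest library. Glul, the glutamine synthetase of the hepatocytes next to the central vein, measured 754, 849 and 621 CPM in WT and 552, 551 and 726 in Het. Cyp2e1, a pericentral cytochrome P450, measured 6800, 7228 and 4564 CPM in WT and 5071, 4664 and 3924 in Het, with WT 3 inside the Het range (log2 fold change -0.44). Cyp2f2, the usual periportal marker, measured 592 to 708 CPM in WT and 617 to 838 in Het. Sds, the periportal serine dehydratase, measured 84.7, 77.0 and 86.8 against 89.5, 113 and 111, with no overlap (log2 fold change 0.33). Axin2, a target of the WNT signal that patterns the central zone, measured 6.97 to 11.5 CPM in WT and 6.26 to 8.72 in Het.

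Acute-phase genes followed single WT animals. Of 29 positive acute-phase genes 7 lay above 0 (median log2 fold change -0.10), with 1 lower at an unadjusted p under 0.05. WT 1 and WT 2 were the highest library for 13 and 12 of them (against 13.9% and 21.2% of all genes tested). WT 3 was the lowest for 17 (against 18.4%). Hp, the hemoglobin scavenger haptoglobin, measured 3596, 3033 and 1481 CPM in WT and 1574, 1836 and 1378 in Het, so that WT 3 lay among the Het libraries (log2 fold change -0.76). The serum amyloid gene Saa1 measured 47.3, 36.4 and 13.6 CPM in WT and 25.8, 31.1 and 25.2 in Het. Lcn2, an iron-siderophore binder induced by inflammation, measured 33.8, 7.56 and 4.73 against 8.57, 13.8 and 9.96, with WT 1 alone high. Of 10 negative acute-phase genes 2 lay above 0 (median -0.14), and 0 were at an unadjusted p under 0.05. Among 31 complement and coagulation genes 13 lay above 0 (median -0.03), with 1 lower at an unadjusted p under 0.05.

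Metallothioneins, which buffer zinc and copper and answer to glucocorticoids, were spread more widely than any difference between groups. Mt1 measured 317, 135 and 174 CPM in WT and 50.2, 70.1 and 459 in Het, and Mt2 measured 17.3, 3.36 and 10.2 against 2.13, 2.52 and 35.5. Het 1 and Het 2 were the lowest libraries and Het 3 the highest for both genes. Of the 5 genes of the list 1 lay above 0 (median log2 fold change -0.19), and Slc30a1, the zinc exporter induced with them, was lower at an unadjusted p under 0.05, at 38.7, 36.5 and 31.5 CPM in WT and 30.7, 26.2 and 26.3 in Het (log2 fold change -0.36).

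**Figure D4:**
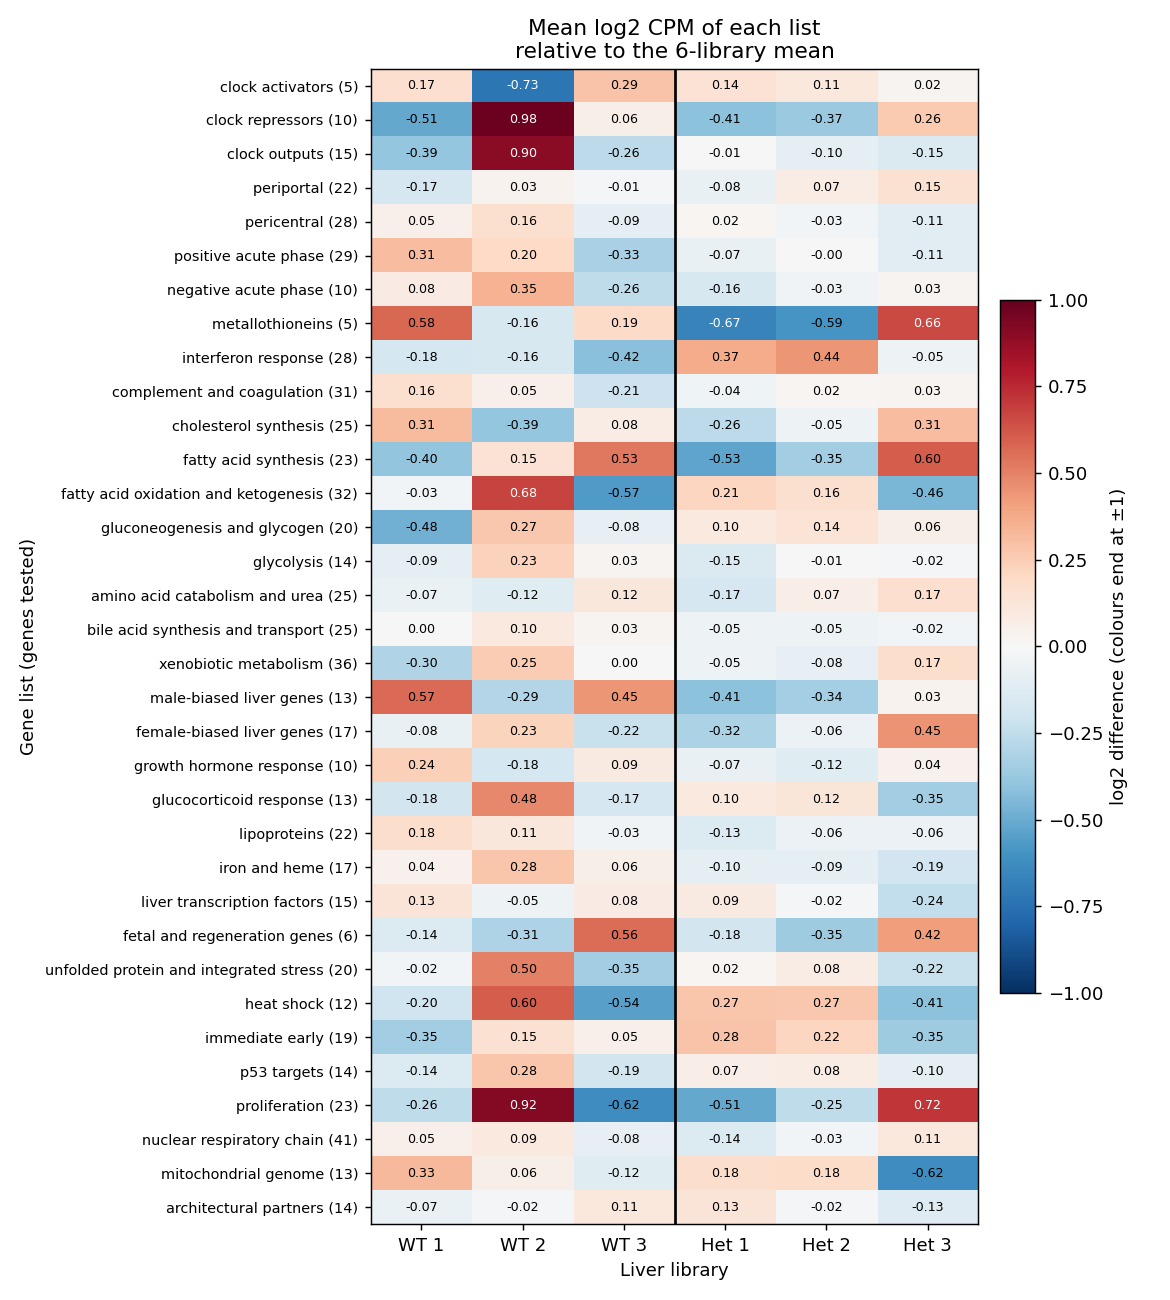
Each cell gives the mean log2 CPM of a gene list in 1 liver library, less the mean over the 6 libraries, for 34 lists with the number of genes tested in parentheses. WT 2 differs most from the rest for the clock lists and fatty acid oxidation, Het 1 and Het 2 resemble each other in most rows, and interferon response is the list in which all Het cells are above all WT cells.

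Over the 34 program lists, the mean levels of the WT and Het libraries overlapped in 30. They did not overlap for interferon response, higher in Het, nor for bile acid synthesis and transport, lipoproteins, and iron and heme, all lower in Het. Single genes did not overlap at 4.68% (higher) and 4.29% (lower) of all genes tested. The gap was narrow for bile acid genes (0.004 in WT 1 against -0.025 in Het 3) and for lipoproteins (-0.035 in WT 3 against -0.057 in Het 2). WT 2 was the highest library in 15 lists, WT 1 in 8 and Het 3 in 6, and WT 3 and Het 1 were each the lowest in 9.

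Immediate early genes, which respond within minutes to stimuli such as handling, went both ways. Of 19 tested 12 lay above 0 (median log2 fold change 0.10). At an unadjusted p under 0.05, 2 were higher and 3 lower (against 2.48% and 2.08% of all genes tested). The groups did not overlap at 3 in each direction (against 4.68% higher and 4.29% lower of all genes tested). Ier2 measured 36.1, 31.1 and 36.8 CPM in WT and 17.9, 17.9 and 20 in Het. All Het libraries were below WT and the libraries of each group were close (log2 fold change -0.90, SE 0.12, edgeR adjusted p = 0.0882). Klf10, a target of transforming growth factor beta that is also under clock control, measured 29.0, 54.0 and 47.8 CPM in WT and 14.3, 11.3 and 19.1 in Het (log2 fold change -1.55, edgeR adjusted p = 0.256). Nr4a1, an orphan receptor, measured 1, 1.70 and 1.85 against 9.17, 10.5 and 2.72, so that Het 3 was near WT (log2 fold change 2.30, edgeR adjusted p = 0.465). Egr1 measured 10.6, 103 and 117 CPM in WT and 16.4, 15.3 and 10.6 in Het, with WT 1 level with Het.

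Stress programs passed no threshold. Heat shock (12 genes, 8 above 0, median log2 fold change 0.06), the unfolded protein and integrated stress response (20 genes, 5 above 0, median -0.17) and the glucocorticoid response (13 genes, 5 above 0, median -0.08) each had 0 members at an unadjusted p under 0.05. Without WT 2 the unfolded protein median was 0.15, and without WT 3 the heat shock median was -0.20. WT 2 was the highest library for 8 of the 12 heat shock genes (against 21.2% of all genes tested). The chaperone Hspa1b measured 2.92, 23.6 and 3.26 CPM in WT and 9.29, 9.68 and 2.61 in Het. Xbp1, a transcription factor of the unfolded protein response, measured 267, 209 and 238 CPM in WT and 206, 206 and 147 in Het, with no overlap (log2 fold change -0.35). Of 14 p53 targets 8 lay above 0 (median 0.01). Proliferation genes (23 tested, 8 above 0, median -0.04, 0 at an unadjusted p under 0.05) were high in 1 library of each group, and their median ran from -0.65 to 0.48 as each library was left out, above 0 without WT 2, Het 1 or Het 2. Mki67, a marker of dividing cells, measured 4.57, 11 and 3.93 CPM in WT and 3.49, 3.62 and 13.9 in Het.

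Genes that differ between male and female liver were examined because growth hormone pulses set them. Of 13 male-biased genes 2 lay above 0 (median log2 fold change -0.22), with 1 higher and 2 lower at an unadjusted p under 0.05, and of 17 female-biased genes 10 lay above 0 (median 0.08), with 1 higher and 2 lower. Over all genes tested the shares at that threshold were 2.48% higher and 2.08% lower. Nox4, an NADPH oxidase on the male-biased list, measured 3.79, 2.10 and 3.60 CPM in WT and 1.08, 0.364 and 0.871 in Het. The groups did not overlap (log2 fold change -2.03, edgeR adjusted p = 0.455), and the liver effect differed from that of the other tissues (difference -2.90, edgeR adjusted p = 0.00133). Hao2, a peroxisomal hydroxyacid oxidase on the female-biased list, measured 83.0, 139 and 84.2 CPM in WT and 176, 173 and 180 in Het, with little spread in Het (log2 fold change 0.79, edgeR adjusted p = 0.666). Other members at an unadjusted p under 0.05 went the other way. The male-biased Selenbp2 measured 62.5, 20.5 and 34.7 CPM in WT and 60.4, 83.0 and 77.7 in Het (log2 fold change 0.91). The female-biased Cyp2b13 measured 245, 198 and 368 against 149, 191 and 148, with no overlap (-0.73). Sult3a1, of the same list, measured 124, 45.8 and 159 against 21.3, 40.3 and 69.1 (-1.33). Cyp3a44, also female-biased and a member of a family of close copies, measured 126, 229 and 82.8 against 48.1, 73.7 and 576. Of 10 growth hormone response genes 3 lay above 0 (median -0.05), and Igf1 measured 498 to 708 CPM in WT and 573 to 584 in Het. Igfbp3, which carries IGF1 in serum, measured 21.5, 22.2 and 17.4 against 27.0, 29.1 and 30.6 CPM, with no overlap (log2 fold change 0.51, edgeR adjusted p = 0.651).

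Of 17 iron and heme genes 4 lay above 0 (median log2 fold change -0.16). Id1, a target of the BMP signal that regulates hepcidin, measured 11.9, 22.0 and 11.3 CPM in WT and 9.18, 7.12 and 5.07 in Het (log2 fold change -1.08, edgeR adjusted p = 0.697), and hepcidin itself, Hamp, measured 500, 366 and 755 against 631, 788 and 279. Id1 did not overlap between the groups and Hamp did. Xenobiotic metabolism (36 genes, 18 above 0, median 0.01) had 3 members higher at an unadjusted p under 0.05 (against 2.48% of all genes tested). Cyp2b10, the classical target of the receptor CAR, measured 11, 20.4 and 15 CPM in WT and 25.8, 32.5 and 15.9 in Het, with Het 3 inside the WT range. Liver transcription factors (15 genes, 4 above 0, median -0.09) had 0 members at an unadjusted p under 0.05. Fetal and regeneration genes (6 genes, 4 above 0, median 0.09) had 1 member lower. The nuclear-encoded respiratory chain (41 genes, 13 above 0, median -0.05) had 0 members at an unadjusted p under 0.05. The 13 protein-coding genes of the mitochondrial genome had a median of -0.22 with 4 above 0, and 1 was lower at an unadjusted p under 0.05. The groups did not overlap at 4 of them, all lower in Het (against 4.29% of all genes tested). Their summed level was 45937 to 47794 CPM in WT and 37564.5 to 41926 in Het. Counts of these genes are uncertain where nuclear copies share reads.

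**Figure D5:**
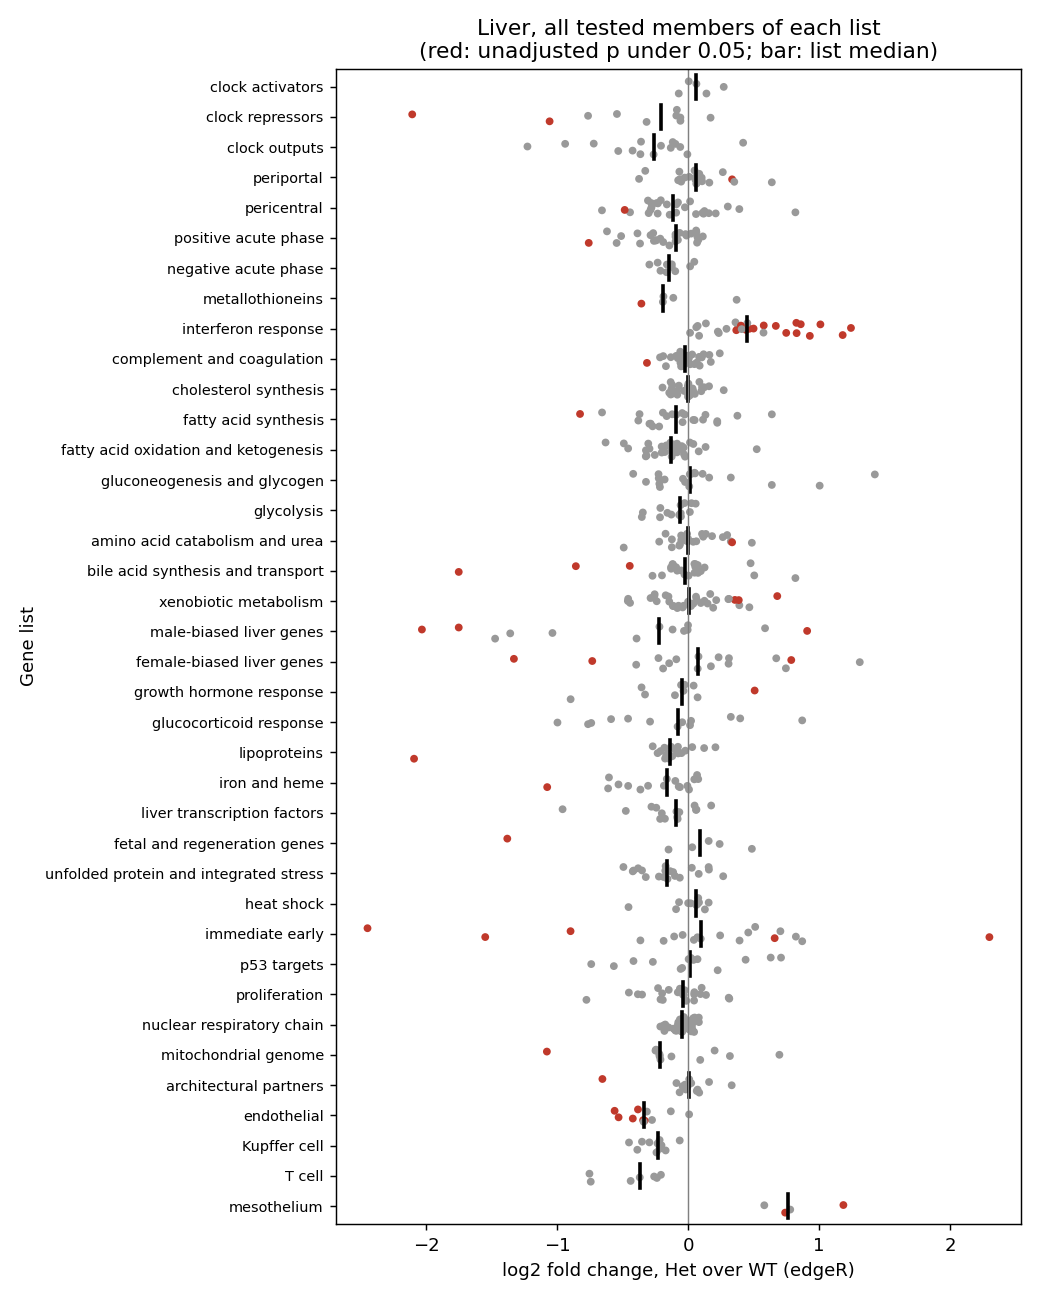
Each point is the log2 fold change (Het over WT, edgeR) of 1 tested gene of the list named on the vertical axis, red where the unadjusted p is under 0.05, with a bar at the list median. All 28 interferon response genes lie above 0 and 10 of 11 endothelial markers below it, and the other program lists have medians between -0.26 and 0.10.

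Outside the lists, genes with a small p after the 3 called are of mixed function. Those given here were taken by smallest p among genes whose groups do not overlap. Their lack of overlap was thus set by the choice, and a small p favours groups that are close within themselves. Xlr3a, an X-linked gene of a family of near copies, measured 3.67, 4.43 and 4.55 CPM in WT and 12, 10.9 and 9.75 in Het (log2 fold change 1.37, edgeR adjusted p = 0.0638). Slc8a3, a sodium-calcium exchanger of excitable tissue, measured 0.0590, 0.278 and 0.393 against 4.14, 3.23 and 5.16 CPM (log2 fold change 4.11, edgeR adjusted p = 0.0882). Rps6ka1, a ribosomal S6 kinase of the ERK pathway, measured 16.5, 19.1 and 18.7 CPM in WT and 9.82, 9.52 and 9.59 in Het (log2 fold change -0.91, edgeR adjusted p = 0.0882). In these 3 genes Het 3 lay with the other Het libraries. Cd207, the lectin langerin of some dendritic cells, measured 3.97, 3.55 and 3.03 CPM in WT and 1.15, 0.741 and 1.44 in Het (log2 fold change -1.67, edgeR adjusted p = 0.232). Eci3, a peroxisomal enoyl-CoA isomerase, measured 6.89, 7.46 and 5.89 against 11.8, 19.6 and 20.7 CPM (log2 fold change 1.36, edgeR adjusted p = 0.232).

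The core of the CTCF motif, searched as CCANNAGNNGGC on both strands, was found in 2.84% of promoters of tested genes, in 11 of 259 genes higher in Het at an unadjusted p under 0.05 (4.25%) and in 6 of 224 lower (2.68%). Of the 3 called genes only Hsd3b1 had a promoter in the table, and these letters are not in its window.

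Of the 27 genes whose liver effect differed from the mean effect of the other 4 tissues, 8 had a higher and 19 a lower effect in liver, and 1497 genes had an unadjusted p under 0.05. Klf10 had a difference of -1.88 (edgeR adjusted p = 0.00547) and Fam19a5 of -5.19 (edgeR adjusted p = 0.000393). Carmil2 had log2 fold changes of 5.30 in liver, 1.47 in brain, 5.34 in kidney, 7.61 in muscle and 0.82 in spleen, and the liver value exceeded the mean of the others by 1.498 (edgeR adjusted p = 0.0379). Without spleen in the mean that difference was 0.50 (edgeR adjusted p = 0.849). The number of such genes was 2 without Het 1 or without Het 2, 101 without WT 1, 48 without WT 2, 15 without WT 3, 4 without brain and 8 without spleen.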

How the data were processed

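The authors deposited raw fragment counts per gene, made with featureCounts 1.5.0-p3 from paired reads over exons of Ensembl annotation 86 (GRCm38), without regard to strand and without fragments that map to several places or to overlapping genes, per the file headers. The labels' protocols describe total RNA from under 30 mg of tissue, treated with DNase and kept at an RNA integrity number over 7, and name FastQC, STAR and DESeq2 without versions. The members and lists were chosen with earlier results of these data known.

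The 3 WT and 3 Het liver libraries were fitted in R 4.3.3 with edgeR 4.0.16 (TMM scaling, filterByExpr, quasi-likelihood test, Benjamini-Hochberg adjustment over all genes tested, calls at an adjusted p under 0.05). Levels are CPM after TMM scaling, and log2 CPM for lists and components used a prior count of 2. The 3-count floor was 0.0348 to 0.0534 CPM. Lists are described by counts and medians and were not tested. A fit over all 30 libraries tested the liver effect against the mean effect in the other 4 tissues. DESeq2 1.42.0, limma 3.58.1 (voom), other scalings and filters, and leaving out libraries were alternatives. The edgeR steps were tested on simulated counts. Promoter sequences came from a RefSeq table of GRCm38.p6.

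Genes were named by a rule: a fixed panel of clock, zonation, acute-phase and metabolic genes, every called gene, up to 3 members of each list with the smallest p, the 15 genes of smallest p whose groups do not overlap, the 10 with the largest spread, and 3 from the comparison with other tissues. Members outside it were named after their values were seen. Some list members are not reported here by name. P-values for liver set the difference between genotypes against the spread between libraries, 3 a group, with each gene's spread moderated by that of all genes. Those of the comparison with other tissues rest on the spread within the groups of all 30 libraries.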

Additional observations from a re-analysis of the deposited data

Results flagged for a closer look

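For 27 genes the difference between Het and WT in liver was not the same as its mean over the other 4 tissues, by edgeR's quasi-likelihood test of that difference. The 8 of them that the naming rule covers are given here, and Fam19a5, Nox4 and Klf10 were named by this same comparison. In Bhlhe40, Klf10, Nox4, Rps6ka1, Spsb4 and Fam19a5 the liver effect was the lower one, by -1.33 for Bhlhe40, -1.88 for Klf10, -2.90 for Nox4, -0.83 for Rps6ka1, -2.73 for Spsb4 and -5.19 for Fam19a5 on the log2 scale. Spsb4, a substrate receptor of a ubiquitin ligase, measured 1.74, 2.29 and 1.44 CPM in WT liver and 0.174, 0.431 and 0.213 in Het. In Unc13b, which primes vesicles for release, and in Carmil2 the liver effect was the higher one, by 1.27 and 1.498. Unc13b measured 4.71, 3.32 and 6.11 CPM in WT and 15.5, 13.5 and 12.7 in Het. Neither gene overlapped between the groups in liver, which the rule that named both of them asked for.

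The Carmil2 difference was 0.71 without brain and 0.50 without spleen (edgeR adjusted p = 0.824 and 0.849). That of Nox4 was -1.98 without spleen (edgeR adjusted p = 0.096). Over the fits that leave out each liver library in turn the adjusted p ran from 3.54e-05 to 0.00112 for Fam19a5 and from 0.00042 to 0.00716 for Nox4, and each of the other 6 genes lost its call in at least 2 of these fits.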

How the results depend on the processing

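The 3 calls in liver became 68 with DESeq2, 16 with a filter of at least 1 count in 1 library, 37 in a fit of all 30 libraries (2 of the 3 among them), 1 to 17 as each library was left out, and 46 without the libraries numbered 3, a setting added after seeing the data. With the replicate number as a block there were 7 calls. The numbers were not taken to pair the samples, since the correlations of same-numbered deviations were 0.0446, 0.109 and 0.278. Scaling by total counts gave 2 calls, both higher. Genes whose liver effect differs from the other tissues were 27 in number, 15 with total counts, 11 with at least 10 counts in every library, 4 without brain, 8 without spleen, 2 to 101 as each liver library was left out and 15 without those numbered 3. Interferon members higher at an unadjusted p under 0.05 numbered 7 to 18 as each library was left out, and endothelial members lower 2 to 7, with 2 by total counts and 2 with all 30 libraries. The median log2 fold change of bile acid genes was 0.036 with total counts, -0.0758 to -0.00477 as libraries were left out and -0.07335 without those numbered 3. Leaving out 1 library moved liver transcription factors between -0.234 and -0.046 and immediate early genes between 0.0479 and 0.419. Without the libraries numbered 3 the medians were -0.27 for pericentral, -0.98 for proliferation, -0.16 for respiratory chain and 0.14 for architectural genes. Genotype accounted for 42.6% of component 2 over all genes. The cause of these shifts was not tested, beyond the smaller number of libraries or genes. Leaving out 1 library turned the sign of the median in 17 of the 34 program lists. Over the lists and alternatives, 561 other medians moved by less than the spread between replicates. No gene with a printed fold change reversed its direction.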

Other observations

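The genes whose liver effect differed from that in the other tissues also included Trib1, Mycn and Setd4, named here after their values were seen. Trib1, a pseudokinase linked to plasma lipids, measured 46.6, 49.6 and 47.6 CPM in WT and 20.5, 23.6 and 35.2 in Het, so WT was narrow and Het 3 was nearest to it. Mycn, a transcription factor of the MYC family, measured 1.58, 2.35 and 0.557 CPM in WT and 0.383, 0.296 and 0.196 in Het. Setd4, a methyltransferase, was the higher one in Het, at 6.91, 11 and 8.35 against 19.3, 15.9 and 18.8 CPM. The groups did not overlap in any of Trib1, Mycn and Setd4.

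Some transcripts set single libraries apart. Krt19, a keratin of bile duct cells, measured 13 CPM in Het 3 and 0.939 to 1.62 CPM in the other 5 libraries. Rgs16, a regulator of G-protein signalling, measured 3.39, 244 and 106 CPM in WT and 45.2, 29.3 and 58.6 in Het, so the WT libraries held both its lowest and its highest level. Igha, the constant region of IgA, measured 18.1 and 26.4 CPM in Het 1 and Het 2 and 1.69 to 5.99 in the other 4 libraries, and Jchain, which joins IgA dimers, measured 4.27 and 5.91 against 0.704 to 2.07.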
